A study of Mus musculus with 14 samples.

Results

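The mouse apolipoprotein L genes were followed in bone marrow cells sorted as endothelium from mice left untreated or given 1 of 3 radiation treatments. The 9 genes described (Apol6, Apol7a, Apol8, Apol9a, Apol9b, Apol10a, Apol10b, Apol11a and Apol11b) were matched by gene name in a table of 55335 genes, and all 9 were found. The family was chosen by measured values, namely counts of Apol11b that were higher after all 3 treatments than in untreated cells, so values against untreated cells, calls included, are descriptions from which nothing is read, and the tests to be read are those between treatments.

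All mice carried Cre recombinase driven by the Cdh5 promoter and a Cre-dependent tdTomato gene at Rosa26, and the sorted cells were negative for lineage markers and for CD45 and positive for TdTomato. The untreated group (4 libraries) received nothing. The TBI group (5 libraries) received 500 cGy of total body irradiation from a caesium source. The IgG RIT group (3 libraries) received 20 µCi of radioimmunotherapy on a non-targeting IgG, and the CD45 RIT group (2 libraries) received 20 µCi directed at CD45. The series title names astatine-211 for the CD45-directed treatment. Treated mice were harvested after 8 days. Ages and sexes were not given in the sources used here, and nothing there says whether a library came from 1 mouse or several, so p-values measure only the spread between these libraries.

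Untreated libraries and 4 TBI libraries were numbered 1 to 9, TBI replicate 6 was number 10 and RIT libraries were numbered 11 to 16. The labels do not say whether these numbers mark separate preparations. RIT treatment and library number therefore cannot be told apart against untreated cells, and against TBI only replicate 6 was close in number. The library with the fewest counts was TBI replicate 6 (16412779), and untreated replicate 1 had the most (31077588). Cdh5, the gene whose promoter drives the reporter and a defining endothelial gene, had 0 to 6 counts in the untreated and TBI libraries and 0 counts in all 5 RIT libraries. A list of 15 endothelial genes summed to 127 to 157 CPM (counts scaled to a common library size) in untreated libraries, 72.9 to 107 after TBI, 63.2 to 75.4 after IgG RIT and 57.2 and 380 after CD45 RIT. The genes of this list did not move together. After CD45 RIT 5 of them (Cdh5, Tek, Emcn, Stab2 and Tie1) had 0 counts, and Pecam1 averaged 0.279 CPM against 44.3 in untreated cells. Of the 13 tested, 3 were higher and 4 lower in CD45 RIT against untreated (edgeR), where 33.1% of all genes were called. Of a list of 15 erythroid genes, 14 were in the table. These 14 summed to 7203 to 12961 CPM in untreated libraries, 25432 to 39102 CPM in 4 TBI libraries, 210131 CPM in TBI replicate 6, 159004 to 181405 CPM after IgG RIT, and 273591 and 61190 CPM in the 2 CD45 RIT libraries. Both CD45 RIT libraries stood apart in 15 stromal genes, which summed to 59427 and 80063 CPM there and to at most 6808 CPM in any other library, with 0 of the 15 genes at 0 counts in the CD45 RIT group. CD45 RIT replicate 2 had counts in 17700 genes, the lowest number of the 14 libraries. In sorted bulk cells such as these, a change in the number of cells of a type and a change in RNA per cell cannot be told apart.

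Apolipoprotein L proteins are helical proteins, most of which stay inside the cell and act at membranes of organelles. The human secreted member APOL1 travels on high-density lipoprotein and kills trypanosomes by forming channels in their membranes. Mice lack that gene but carry a locally duplicated family, of which Apol9a and Apol9b are known as interferon-induced genes, while the roles of most other members are not well defined.

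Of the 9 genes, 8 lay in a cluster of 368.8 kb on chromosome 15 (chr15:77388219-77757003, GRCm38), from Apol7a to Apol8. Apol6 lay 331.1 kb outside it, past Rbfox2, and the far side of Apol8 faced Myh9, the gene of non-muscle myosin heavy chain. The most abundant member, Apol11b, occupied chr15:77633946-77643286 on the minus strand, and its closest relative by sequence, Apol11a, occupied chr15:77508271-77518051 on the plus strand. Apol8 lay at chr15:77747798-77757003 on the minus strand and Apol10a at chr15:77477047-77491069 on the plus strand.

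The 250 bases before the RefSeq start sites (RefSeq, GRCm38.p6) are shown for the abundant cluster members because the windows of Apol11b and Apol11a were identical in all 250 bases, while their levels differed widely. The windows are written 5′ to 3′ on the strand of the gene. Capitals mark matches, on either strand, to GATA, the core letters bound by GATA factors, to CACCC, the letters of the box bound by erythroid Krüppel-like factors, and to GAAANNGAA, the core of the interferon-stimulated response element. The window of Apol11b lies at chr15:77643287-77643536 on the minus strand, that of Apol11a at chr15:77508019-77508268 on the plus strand, that of Apol10a at chr15:77476797-77477046 on the plus strand and that of Apol8 at chr15:77757011-77757260 on the minus strand.
Apol11b and Apol11a: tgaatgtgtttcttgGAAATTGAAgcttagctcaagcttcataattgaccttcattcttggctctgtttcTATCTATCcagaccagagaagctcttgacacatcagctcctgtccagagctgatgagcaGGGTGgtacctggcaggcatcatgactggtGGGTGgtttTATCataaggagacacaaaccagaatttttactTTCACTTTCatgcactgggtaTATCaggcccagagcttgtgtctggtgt
Apol10a: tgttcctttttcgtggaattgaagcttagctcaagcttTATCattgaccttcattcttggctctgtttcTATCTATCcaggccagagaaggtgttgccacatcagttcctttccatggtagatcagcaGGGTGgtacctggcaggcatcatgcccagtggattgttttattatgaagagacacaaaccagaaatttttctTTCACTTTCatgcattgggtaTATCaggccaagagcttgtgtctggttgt
Apol8: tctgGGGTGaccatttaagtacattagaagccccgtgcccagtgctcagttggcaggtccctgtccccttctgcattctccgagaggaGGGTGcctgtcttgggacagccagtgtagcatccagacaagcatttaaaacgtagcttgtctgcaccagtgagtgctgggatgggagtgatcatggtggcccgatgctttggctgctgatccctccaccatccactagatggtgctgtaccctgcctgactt

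The shared Apol11b and Apol11a window held 4 GATA matches, at 180, 176, 82 and 28 bases before the start, 2 CACCC matches, and 2 GAAANNGAA matches, at 235 and 49 bases. The Apol10a window aligned with it over 249 bases and was identical at 218 of the 250 bases (87.2%). It held 4 GATA matches, 1 CACCC match and 1 GAAANNGAA match. Apol8 differed from these 3: its window held 0 GATA matches, 2 CACCC matches and 0 GAAANNGAA matches, and 60.8% of its bases were identical to the Apol11b window in the alignment, against 58% for the window of Apold1, a gene on chromosome 6. At the farther upstream of their 2 RefSeq starts, the windows of Apol9a and Apol9b were identical at all 228 aligned bases (91.2% of the 250). The rest was an offset between the 2 windows, not mismatches. Each held 0 GATA, 3 CACCC and 2 overlapping GAAANNGAA matches. The latter lay 58 and 52 bases before the start in Apol9a, and 36 and 30 bases in Apol9b. Among 32851 windows of the same length, 53.6% held at least 1 GATA match and 3.52% held 4 or more, 52% held a CACCC match, 7.13% held a GAAANNGAA match and 0.469% held 2 or more. Of 27025 genes with a window, 1.85% shared an identical one with another gene. Matches are letters in a window and were not tested as binding sites. Apol6 had no entry among these windows.

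Similar transcripts also bear on the counts, since a read that fits several genes can be dropped or split, and how the counter treated such reads is not given in the sources used here. Transcripts were compared by their words of 50 bases. Of the words of Apol11a, 15.3% also occurred in Apol11b, and 10.9% of the words of Apol11b occurred in Apol11a. In total 84.8% of the words of Apol11b, 82% of those of Apol11a and 83.1% of those of Apol10a were unique to each gene. Apol8 had 100% unique words and Apol6 98.3%, with 0 shared with other Apol genes. Apol9b was the least distinct member, with 52.3% of its words in Apol9a and 47.7% unique. Counts of Apol8 and Apol6 are therefore little touched by reads shared within the family, while those of Apol9a and Apol9b are uncertain.

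**Figure D1:**
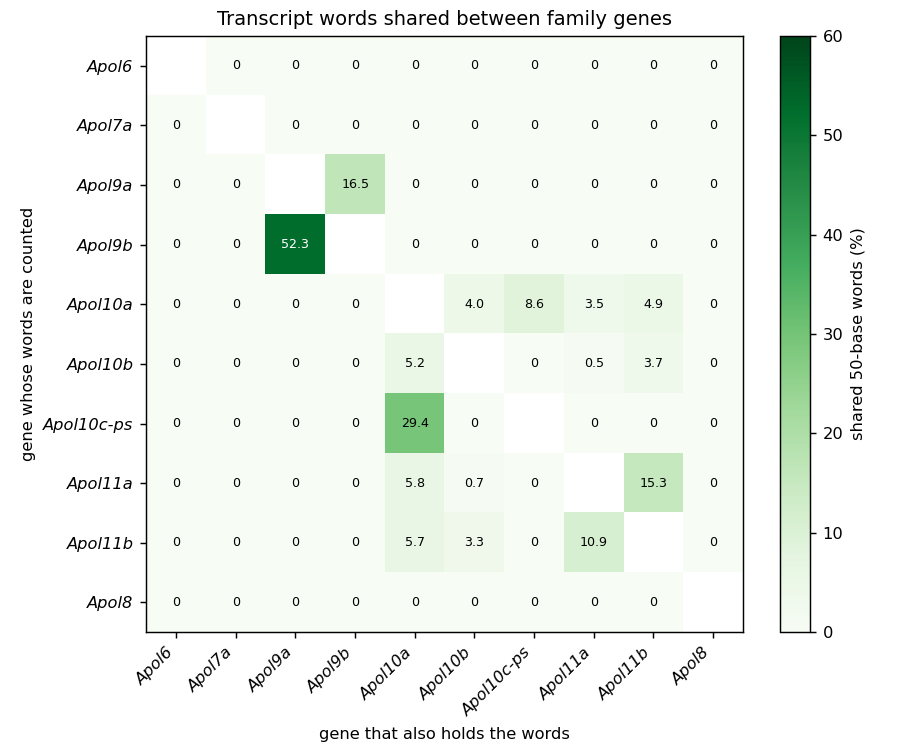
Percent of the 50-base words of each gene (rows) that also occur in another Apol gene (columns), with colour and printed value on the same scale and the diagonal left blank. Apol8 and Apol6 share 0 words with the other Apol genes shown, 52.3% of the Apol9b words occur in Apol9a, and the Apol10 and Apol11 genes share 15.3% or less apart from the pseudogene Apol10c-ps, which shares 29.4% of its words with Apol10a.

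Apol11b and Apol8 were the most abundant members over all libraries, but not in each group. Per kb of exons, the mean over the 14 libraries was 237 CPM for Apol11b, 42.5 CPM for Apol8, 10.6 CPM for Apol11a, 0.929 CPM for Apol6 and 0.665 CPM for Apol10a. The other 4 members (Apol7a, Apol9a, Apol9b and Apol10b) each averaged less than 0.15 CPM per kb. In untreated libraries Apol11b and Apol8 were at like levels, 7.81 ± 6.09 CPM per kb (SD, n = 4) for Apol11b and an Apol11b to Apol8 ratio per kb of 0.691 to 2.30. In the libraries of TBI and IgG RIT that ratio per kb was 2.62 to 5.86, and in CD45 RIT replicate 1 it was 27.3. In the CD45 RIT group Apol11a (mean 23.9 CPM per kb) stood above Apol8 (18.5), and in replicate 2 Apol6 had the most counts after Apol11b, 1119 of the 5208 counts of the family. All 9 genes together took 14.3 to 70.3 CPM in untreated libraries, 279 to 2113 CPM after TBI, 1035 to 1322 CPM after IgG RIT, and 2701 and 250 CPM after CD45 RIT.

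**Figure D2:**
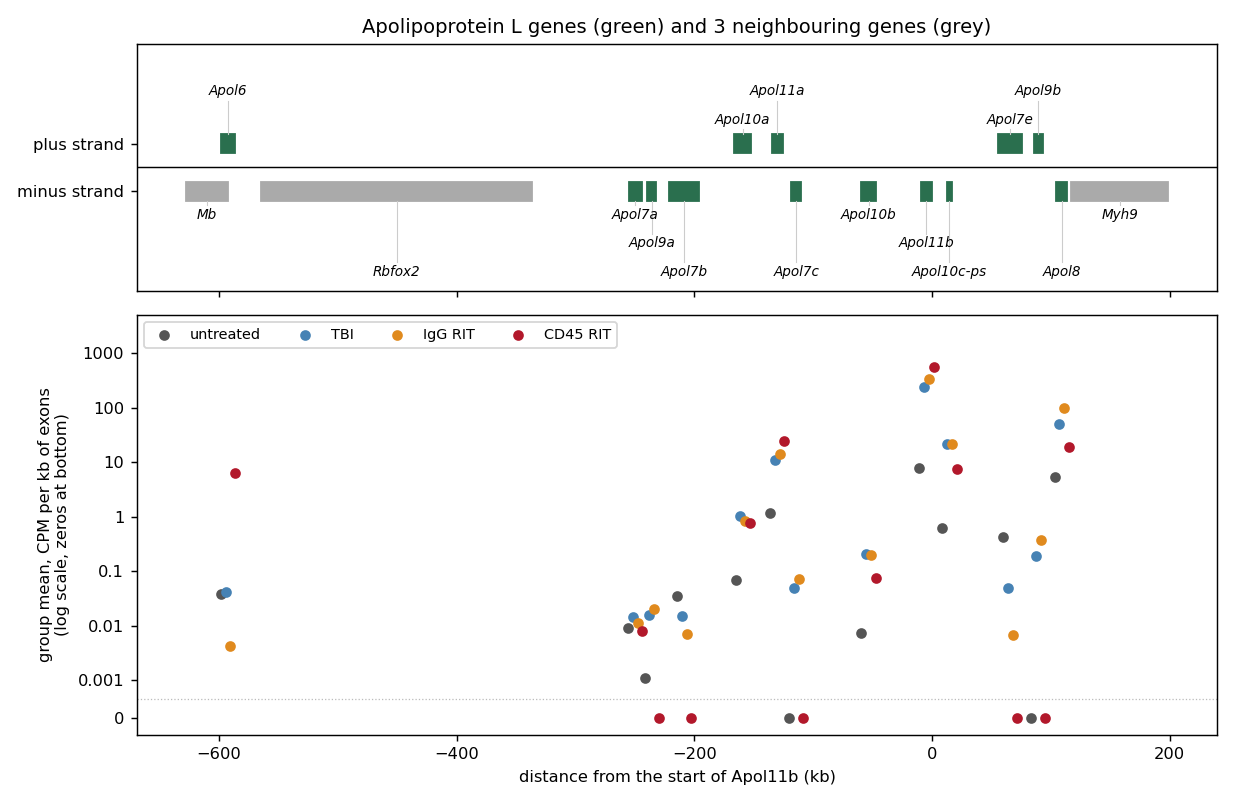
Top, positions of the Apol genes (green) and 3 neighbours (grey) by strand, in kb from the start of Apol11b with the coordinates rising to the right. Bottom, group mean level of each Apol gene in CPM per kb of exons on a log scale with zeros at the bottom, the 4 groups set side by side at each gene, so that Apol11b is the highest in each group, Apol8 follows it in all but CD45 RIT, where Apol11a does, and Apol6 is high in CD45 RIT alone.

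Apol11b was the highest member in each treated library and was higher in each of the 10 treated libraries than in any untreated one. Untreated libraries had 15.7, 9.27, 41.3 and 10.6 CPM (replicates 1 to 4). TBI libraries had 298, 268, 188, 460 and 1693 CPM (replicates 1, 3, 4, 5 and 6). IgG RIT libraries had 1002, 782 and 700 CPM, and CD45 RIT libraries had 2498 and 192 CPM. The groups thus did not overlap with the untreated one, and the widest spreads lay within TBI, where replicate 6 was the highest, and within CD45 RIT. Group means were 19.2 ± 15.0 CPM (SD, n = 4) in untreated cells, 581 ± 629 (n = 5) after TBI, 828 ± 156 (n = 3) after IgG RIT and 1345 ± 1631 (n = 2) after CD45 RIT. The fitted log2 fold change against untreated was 4.92 (SE 0.94) for TBI, 5.43 (SE 1.00) for IgG RIT and 6.13 (SE 1.06) for CD45 RIT. Without TBI replicate 6 the TBI value was 3.98, and without CD45 RIT replicate 1 the CD45 RIT value was 3.31. Ranked by counts among all genes, Apol11b stood at 4812 to 9722 in untreated libraries and reached 53 in TBI replicate 6 and 46 in CD45 RIT replicate 1.

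Apol8, the second most abundant member, was high after TBI and IgG RIT but had no counts in 1 of the 2 CD45 RIT libraries. Untreated libraries had 15.8, 4.85, 25.2 and 18.5 CPM. TBI libraries had 77.0, 96.2, 86.3, 117 and 348 CPM. IgG RIT libraries had 286, 271 and 306 CPM. CD45 RIT replicate 1 had 110 CPM and replicate 2 had 0 counts, where the limit that a count of 0 allows (3 counts) is 0.144 CPM. The TBI and IgG RIT libraries lay above all untreated ones, while the 2 CD45 RIT libraries lay on either side of them. The log2 fold change against untreated was 3.17 (SE 1.18) for TBI, 4.16 (SE 1.29) for IgG RIT and 1.77 (SE 1.31) for CD45 RIT, and the last became -11.67 without CD45 RIT replicate 1.

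Apol11a, the gene with the same upstream window as Apol11b, had far lower counts. Its counts were 200, 7, 87 and 6 in untreated libraries, 263, 319, 81, 506 and 833 after TBI, 522, 462 and 489 after IgG RIT, and 1396 and 81 after CD45 RIT. Scaled to library size, untreated replicate 1 (5.24 CPM) lay above the lowest TBI and CD45 RIT libraries (3.86 and 3.89 CPM), untreated replicate 3 (2.90 CPM) lay below them, and all IgG RIT libraries lay above the untreated ones. The ratio of Apol11b to Apol11a per kb was 18.4 to 38.7 in the 10 treated libraries and 2 untreated ones, and 2.27 and 10.8 in untreated replicates 1 and 3. Apol10a, lower again, had 0, 0, 24 and 1 counts in untreated libraries, 41, 31, 12, 78 and 134 after TBI, 44, 58 and 39 after IgG RIT, and 71 and 5 after CD45 RIT. Untreated replicate 3 held nearly all of the untreated counts of Apol10a and was also the untreated library with the most Apol11b.

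Apol6, the member outside the cluster, was near 0 in every group except CD45 RIT. It had 0, 0, 0 and 20 counts in untreated libraries, 1, 1, 3, 7 and 7 after TBI, 1, 0 and 0 after IgG RIT, and 49 and 1119 after CD45 RIT. Both CD45 RIT libraries lay above all others, and within them the order was the reverse of that of Apol11b and Apol8, with replicate 2 the higher. Apol6 overlaps Mb, the myoglobin gene on the opposite strand, over 64 exon bases. Whether counting used strand is not given in the sources used here, so reads from those bases cannot be told apart. Mb itself had 132 and 215 counts in the CD45 RIT libraries and 0 to 13 elsewhere. In replicate 1 Apol6 had fewer counts than Mb (49 against 132) and in replicate 2 more (1119 against 215).

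The sparse members were Apol9a, Apol9b, Apol10b and Apol7a. Apol9b had 0 counts in all 4 untreated and both CD45 RIT libraries, 7, 3, 0, 11 and 14 after TBI, and 0, 20 and 19 after IgG RIT. Apol10b had 0 or 1 count in untreated libraries, 0 to 24 after TBI, 6 to 14 after IgG RIT and 5 and 1 after CD45 RIT. Apol9a had at most 6 counts and Apol7a at most 3 in any library. With so few counts, differences of Apol9a and Apol7a were not detectable at this depth, and these 2 genes did not pass the filter on low counts, which left 7 members among the 21509 genes tested.

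**Figure D3:**
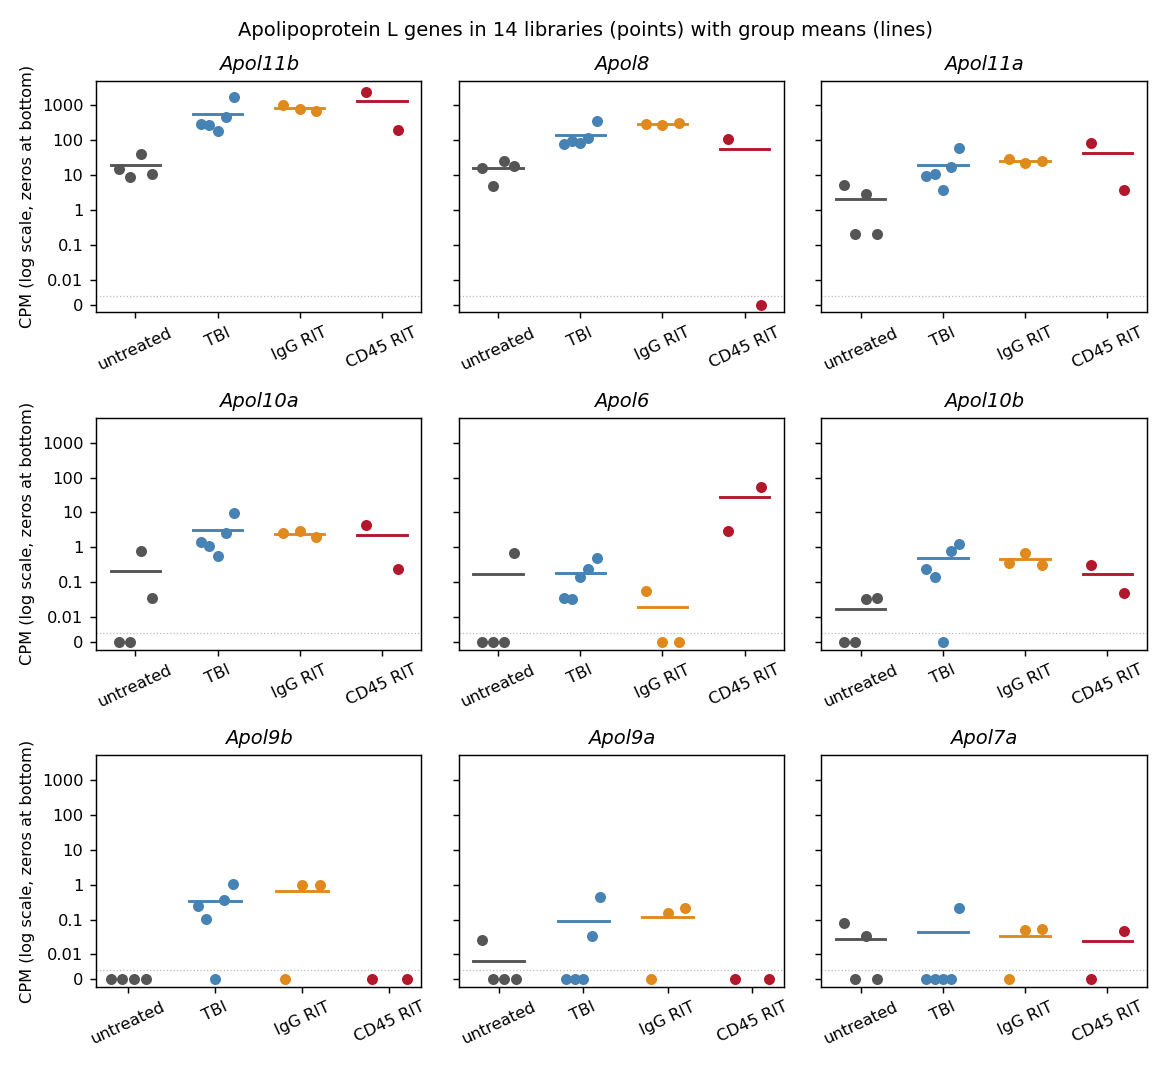
CPM of the 9 genes in each of the 14 libraries (points) with group means (lines), on a log axis with zeros drawn below the dotted line. Apol11b is at most 41.3 CPM in untreated libraries and at least 188 CPM in treated ones, Apol8 is at 0 in 1 CD45 RIT library, and Apol6 passes 2 CPM only after CD45 RIT.

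Under the edgeR quasi-likelihood test with Benjamini-Hochberg adjustment over all genes tested, calling genes at an adjusted p under 0.05, 1 of the 7 members was called for TBI against untreated (4.31% of all genes), 4 for IgG RIT against untreated (16.4%) and 3 for CD45 RIT against untreated (33.1%). Every called member was higher in the treated group. The called member for TBI was Apol11b. Those for IgG RIT were Apol11b, Apol8, Apol9b and Apol10b, and those for CD45 RIT were Apol11b, Apol11a and Apol6. Since these comparisons chose the genes and share their untreated libraries, nothing is read from the counts.

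Between the treatments, Apol6 alone of the 7 members tested passed the test, and it was higher after CD45 RIT. In CD45 RIT against IgG RIT, 1 of 7 members was called, where 37.7% of all genes were. The IgG RIT libraries were at or under 3 counts, so that Apol6 was at least 177-fold higher after CD45 RIT by the mean of its 2 libraries (28.4 CPM, adjusted p = 0.00707 by the edgeR quasi-likelihood test). Taken singly, CD45 RIT replicate 1 was at least 18.6-fold and replicate 2 at least 336-fold higher. In CD45 RIT against TBI, again 1 of 7 was called, where 38.6% of all genes were, and the log2 difference of Apol6 was 7.27 (SE 1.68, adjusted p = 0.00494, edgeR). The Apol6 call rested on CD45 RIT replicate 2: without it the adjusted p was 0.0534 against IgG RIT and 0.14 against TBI, with log2 differences of 6.81 and 3.81. Both CD45 RIT libraries also carried the stromal genes at the levels given above, and their part in the Apol6 difference was not tested.

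Apol11b did not pass the test between any 2 treatments, although its means stood in the order TBI, IgG RIT, CD45 RIT. The log2 difference was 0.70 (SE 1.03, adjusted p = 0.614, edgeR) for CD45 RIT against IgG RIT, 1.21 (SE 0.91, adjusted p = 0.301) for CD45 RIT against TBI, and 0.51 (SE 0.83, adjusted p = 0.776) for IgG RIT against TBI. The 2 CD45 RIT libraries lay on either side of all IgG RIT values, and the order of the means depended on single libraries: without CD45 RIT replicate 1 the first 2 differences were -2.11 and -1.60. Without TBI replicate 6 the difference between CD45 RIT and TBI was 2.15 and passed (adjusted p = 0.0481, edgeR).

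Apol8 differed between the 2 CD45 RIT libraries, 1 of which was at 0 while the other lay above 3 of the 5 TBI libraries. The 2 CD45 RIT libraries (110 and 0 CPM) lay below all 3 IgG RIT libraries (271 to 306 CPM), but the difference did not pass (log2 difference -2.39, SE 1.57, adjusted p = 0.244, edgeR). It was -1.40 (SE 1.42, adjusted p = 0.441) against TBI. Both passed when CD45 RIT replicate 1 was left out, since the remaining library was at 0 (adjusted p = 0.000104 and 0.000152, edgeR). Between IgG RIT and TBI the Apol8 difference was 0.99 (SE 1.12, adjusted p = 0.667).

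Apol11a and Apol10a did not pass either. For CD45 RIT against IgG RIT the log2 difference was 0.76 (SE 1.42, adjusted p = 0.697) for Apol11a and -0.13 (SE 1.72, adjusted p = 0.977) for Apol10a, by the edgeR test. In IgG RIT against TBI, 0 of 7 members were called by edgeR, where 52 genes (0.242% of all genes) were called. By edgeR 0 of the 7 had an unadjusted p under 0.05, and their lowest adjusted p was 0.48. DESeq2 also called 0 of the 7, where it called 2085 genes. The standard errors of 0.83 to 2.16 in that comparison leave differences of several fold undetectable.

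**Figure D4:**
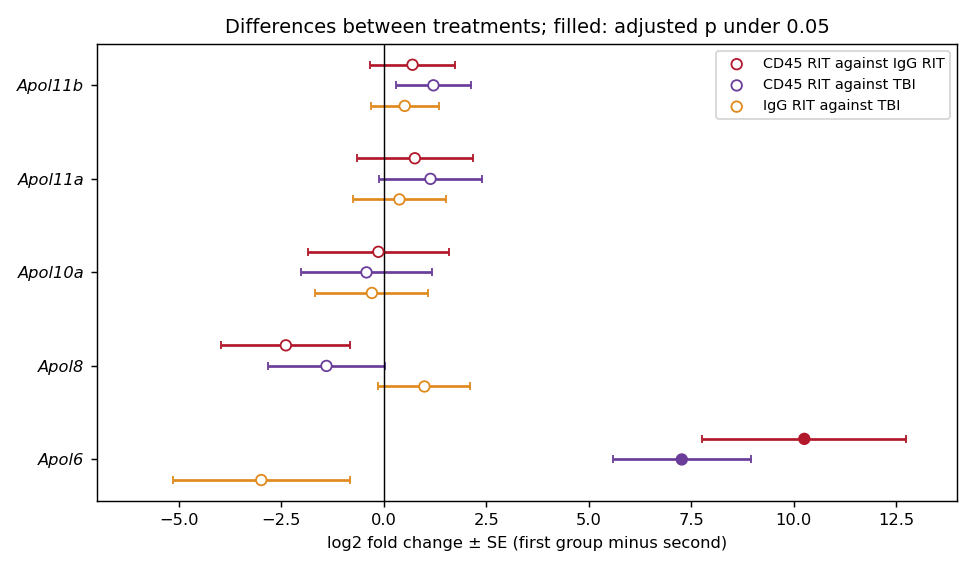
Log2 fold change between treatments with its standard error for the 5 members averaging at least 1 CPM, from edgeR. Filled points, those of Apol6 at 10.26 and 7.27, have an adjusted p under 0.05, and both Apol6 values that involve IgG RIT are fits to a group at or under 3 counts per library, not measured folds.

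Within the family, the balance of Apol11b and Apol8 was different in the CD45 RIT libraries. The count ratio of Apol11b to Apol8 was 0.575 to 1.91 in untreated libraries, 2.17 to 4.87 after TBI, 2.29 to 3.50 after IgG RIT and 22.7 in CD45 RIT replicate 1. In CD45 RIT replicate 2, 4001 counts of Apol11b stood against 0 of Apol8. This ratio was singled out after its values were seen, and it was not tested. Across the 14 libraries the correlation of log2 CPM with Apol11b was 0.936 for Apol10a, 0.928 for Apol11a and 0.536 for Apol8, and the value for Apol8 was 0.924 without CD45 RIT replicate 2. These points share libraries, groups and depth, so the correlations are descriptions. Apol10a and Apol11a also share words with Apol11b, while Apol8 shares 0, and the part of shared reads was not tested.

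The genes most like Apol11b across the 14 libraries, out of 8074 candidates ranked by Pearson correlation of log2 CPM, were Clgn (r = 0.961), Fech (0.955), Mpp1 (0.954), Epb41 (0.951) and Alas2 (0.948). Clgn encodes a chaperone of the endoplasmic reticulum. Fech and Alas2 encode the last enzyme of haem synthesis and its erythroid entry enzyme, and Mpp1 and Epb41 encode proteins of the red cell membrane skeleton. Alas2 had 223 ± 77.0 CPM in untreated cells (SD, n = 4), 2125 ± 2666 after TBI (n = 5), 5553 ± 1007 after IgG RIT (n = 3) and 6765 ± 6410 after CD45 RIT (n = 2). Those most like Apol8 were Rhag (0.991), which encodes a red cell membrane channel, Agtr1a (0.991), an angiotensin receptor, and Abcb10 (0.987), a mitochondrial transporter needed for haem synthesis. Each of these 3 was also low in CD45 RIT replicate 2, where Rhag had 8.51 CPM against 844 in replicate 1, Agtr1a had 1 count against 555, and Abcb10 had 10.9 CPM against 490.

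The erythroid genes moved beside some members of the family but not beside Apol6, and their part in the differences was not tested. Apol6 had 49 counts in CD45 RIT replicate 1, where the erythroid sum was 273591 CPM. It had 1119 counts in replicate 2, where that sum was 61190 CPM. As a share of the summed CPM of the 14 erythroid genes, Apol11b was 0.115 to 0.319% in untreated libraries, 0.738 to 1.18% after TBI and 0.429 to 0.552% after IgG RIT, and it was 0.913 and 0.314% after CD45 RIT. On this scale all TBI and IgG RIT libraries lay above the untreated ones, while CD45 RIT replicate 2 fell within them. These values against untreated cells are descriptions from which nothing is read. The sum was mostly globin RNA: after IgG RIT Hbb-bs, Hba-a1 and Hbb-bt averaged 63048.5, 54050 and 16166 CPM, of a mean sum of 167893 CPM. Apol8 was 0.0673 to 0.200% of the same sum in untreated libraries, 0.165 to 0.339% after TBI, 0.158 to 0.187% after IgG RIT, and 0.0402 and 0% after CD45 RIT. On this scale Apol8 lay above the untreated range in TBI replicates 1, 3, 4 and 5 and within it in TBI replicate 6. It lay within that range after IgG RIT and below it after CD45 RIT. These values too are descriptions from which nothing is read. TBI replicate 6, the TBI library with the most Apol11b, Apol8, Apol11a and Apol10a, was also the one with the highest erythroid sum. Between treatments, 0 of the 14 erythroid genes were higher and 2 lower in CD45 RIT against IgG RIT (edgeR), where 37.7% of all genes were called. In CD45 RIT against TBI and IgG RIT against TBI 0 were called, where 38.6% and 0.242% of all genes were. In the same order, the erythroid median log2 differences were -1.68, -0.35 and 1.16, against -0.13, -0.39 and -0.16 over all genes.

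**Figure D5:**
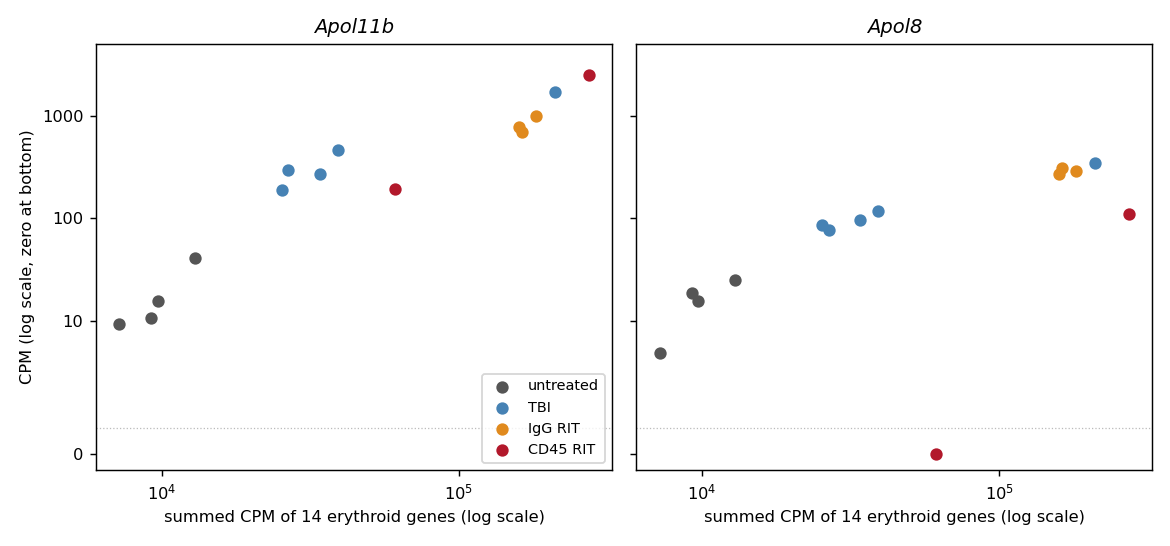
CPM of Apol11b (left) and Apol8 (right) against the summed CPM of 14 erythroid genes in the 14 libraries, both axes on log scales with zero at the bottom of the vertical one. In each treated group the library with the highest erythroid sum also has the most Apol11b, and for Apol8 the 2 CD45 RIT libraries lie below the treated libraries nearest to them in erythroid sum.

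Interferon-stimulated genes, to which Apol9a and Apol9b are known to belong, are given by their calls beside those of all genes. Of 40 such genes, 23 were higher and 1 lower in CD45 RIT against untreated (median log2 fold change 2.07, against -0.37 over all genes), where 33.1% of all genes were called, 6 higher and 7 lower in IgG RIT (0.48 against -0.42), where 16.4% were, and 1 higher and 6 lower in TBI (-0.47 against -0.16), where 4.31% were. Over all 21509 genes 3115 were higher and 4001 lower in CD45 RIT, 1236 and 2300 in IgG RIT, and 198 and 728 in TBI. In the 2 CD45 RIT libraries the limit that 0 counts of Apol9a and Apol9b allow was 0.183 and 0.144 CPM. Between treatments 18 of the 40 were higher and 4 lower in CD45 RIT against IgG RIT, 23 higher and 2 lower in CD45 RIT against TBI, and 2 higher and 0 lower in IgG RIT against TBI (edgeR), where 37.7%, 38.6% and 0.242% of all genes were called. The most abundant of the list was Rsad2, which encodes the antiviral enzyme viperin, at 70.3 ± 30.7 CPM in untreated cells, 291 ± 252 after TBI, 1502 ± 484 after IgG RIT and 1340 ± 836 after CD45 RIT. Lgals3bp and Ifitm3 followed it, with log2 differences of 4.15 and 2.36 in CD45 RIT against IgG RIT (SE 0.28 and 0.31, adjusted p = 1.68e-06 and 0.000129, edgeR). Of 16 interferon receptor and signalling genes, 10 were higher and 0 lower in CD45 RIT against IgG RIT, among them Jak1, the kinase shared by interferon receptors (log2 difference 1.21, SE 0.42, adjusted p = 0.0398). A list of 15 macrophage genes summed to 3456 and 4818 CPM in the CD45 RIT libraries and to at most 247 CPM in the others. Most of that sum was Vcam1 (mean 3182 CPM), which is also on the stromal list, and Slc40a1 (724 CPM). Csf1r, the macrophage growth factor receptor, was at 2.75 CPM after CD45 RIT against 45.4 in untreated cells. After CD45 RIT 3 of the 15 (Adgre1, Spic and Marco) had 0 counts, as Marco also had in untreated cells and Adgre1 after IgG RIT. Of the 14 macrophage genes tested, 7 were higher and 0 lower in CD45 RIT against IgG RIT (edgeR). Against TBI 10 were higher and 2 lower, and against untreated 9 were higher and 3 lower. The shares of all genes called were 37.7%, 38.6% and 33.1% in the same order. The part of these genes was not tested.

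Further genes named for the family were low. Of Apol7b, Apol7c, Apol7d, Apol7e and Apold1, 3 passed the filter. Apold1, an endothelial early response gene on chromosome 6 named for a related domain, had 1.61 ± 0.39 CPM in untreated cells, 5.92 ± 3.44 after TBI, 15.2 ± 1.30 after IgG RIT and 12.6 ± 2.08 after CD45 RIT. Apol7e had its highest group mean in untreated cells, 1.03 ± 0.72 CPM, and 0 counts after CD45 RIT, but untreated replicate 1 also had 0 counts. It was not called in any comparison (edgeR), and it shares 71.6% of its words with other Apol genes. Apol7d, annotated as a long non-coding RNA on chromosome 1, shares 9.36% of its words with Fn1, the fibronectin gene, and was higher in CD45 RIT against TBI and IgG RIT (adjusted p = 0.00294 and 0.0396, edgeR) in the libraries where Fn1 was also highest, at 130 and 847 CPM. The pseudogene Apol10c-ps, beside Apol11b and looked at after its values were seen, had 0, 0, 28 and 21 counts in untreated libraries, 73 to 610 after TBI, 180 to 310 after IgG RIT, and 134 and 34 after CD45 RIT.

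Neighbours on chromosome 15 were counted in the same way. Of 10 listed neighbours 8 were tested. In TBI and in IgG RIT against untreated 0 were higher and 1 lower, where 4.31% and 16.4% of all genes were called. In CD45 RIT, both against untreated and against TBI, 3 were higher and 4 lower, where 33.1% and 38.6% of all genes were called. Myh9, the gene next to Apol8, had 60.6 ± 16.8 CPM in untreated cells, 51.6 ± 6.24 after TBI and 47.3 ± 8.38 after IgG RIT, and 48.1 and 260 CPM in the 2 CD45 RIT libraries. In CD45 RIT against IgG RIT 3 of the 8 were higher and 3 lower, where 37.7% of all genes were called. Among them Txn2, a mitochondrial thioredoxin, was lower, with a log2 difference of -1.38 (SE 0.21, adjusted p = 0.000389, edgeR). Genes named for other apolipoproteins, most of which encode lipid carriers of plasma, were also counted. Of 18 listed, 12 were tested, and Apoe, which fell after TBI and IgG RIT, had 461 ± 185 CPM in untreated cells, 60.9 ± 26.9 after TBI, 107 ± 35.9 after IgG RIT and 4894 ± 451 after CD45 RIT. Apoe was higher in CD45 RIT against IgG RIT by 5.51 (log2, SE 0.50, adjusted p = 1.31e-05, edgeR), as were 5 of the 12 in all, with 1 lower, where 37.7% of all genes were called.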

How the data were processed

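Gene counts of 14 libraries came as 1 deposited table, whose values are whole numbers with differing totals and no sign of normalization. Libraries were made with SMART-Seq v4 and Nextera XT kits, per the labels' protocols. The submitters' processing notes name STAR 2.7.7a, FastQC 0.11.9, edgeR 3.36.0 and the build hg38. The gene identifiers are those of mouse: 54587 of 55335 matched GENCODE M21 (GRCm38), all 54587 with the same coordinates, and coordinates are given on GRCm38. The counter, its use of strand and its treatment of reads shared between genes are not given in the sources used here. Columns were matched to samples by library name, and no replicate pair looked like repeat copies of 1 library (lowest chi-square per gene 17.2).

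Genes were kept by filterByExpr (minimum count 10, minimum total 15), which left 21509. TMM factors, robust quasi-likelihood fits over all 4 groups and Benjamini-Hochberg adjustment within each comparison were run with edgeR 4.0.16 in R 4.3.3, and genes were called at 0.05. CPM use TMM-scaled library sizes. Standard errors were taken from the log2 fold change and the F statistic (size of the change over the root of F). A group at or under 3 counts in each library gives a bound per library (0.0785 to 0.215 CPM), which covers counting error only. These libraries carry no molecular identifiers. Levels between genes are per kb of exons.

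Members and lists were chosen with earlier results of these data known. The 5 members averaging at least 1 CPM are given by library, the 3 most abundant genes of each list are those eligible to be named, and likeness used log2 CPM with a prior count of 2 over genes whose mean log2 CPM was 3 or more. RefSeq windows matched 8 of 9 members by symbol. The script was tested on simulated data. Alternatives were RLE factors, no scaling, no filter, DESeq2 1.42.0, the replicate number as a block and each library left out. 1 alternative, the libraries numbered 10 or more alone, was added after the data were seen.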

Additional observations from a re-analysis of the deposited data

Results flagged for a closer look

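Members averaging at least 1 CPM were screened within groups of 4 or 5 libraries. For 6 values the gap to the nearest library exceeded the 95% limit of Dixon's test, which chance alone passes in about 1 of 20 groups of normal values. CPM of low counts are skewed, so that rate need not hold here. TBI replicate 6 supplied 4 of them: Apol11b at 1693 CPM, Apol8 at 347.6 CPM, Apol11a at 59.76 CPM and Apol10a at 9.613 CPM. This library had the lowest total count of the 14, the highest erythroid sum of the TBI group (210131 CPM) and the only library number in that group above 9. Among untreated libraries, Apol6 was at 0.6926 CPM in replicate 4 against 0 in the other 3, and Apol10a was at 0.8007 CPM in replicate 3. What sets these libraries apart was not tested.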

How the results depend on the processing

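Apol11b stayed higher in each treated group than in untreated cells under all alternatives run, at log2 3.59 to 5.62 for TBI, 4.90 to 6.12 for IgG RIT and 3.31 to 6.98 for CD45 RIT. These values chose the family, so nothing is read from them. Of 514 refitted member differences, 428 kept their direction and side of the threshold, 38 fell below it, 16 passed it and 32 changed sign. Causes were not tested.

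Same-numbered libraries did not deviate together (13 pairs, correlations -0.0896 to 0.139, 1 above 0.1), so the numbers were not taken as pairs. With the replicate block, all genes called were 5098 for CD45 RIT against IgG RIT (8108 without), 3756 against TBI (8308) and 4062 against untreated (7116), 2063 for IgG RIT against untreated (3536) and 38 for TBI against untreated (926). Members called under the block were 0 for CD45 RIT against TBI (Apol6, adjusted p = 0.0515), 0 for TBI against untreated and 2 for IgG RIT against untreated. Signs changed under the block for Apol10a (1.34 in CD45 RIT and 1.94 in IgG RIT against TBI), Apol10b (0.32 and 1.96), Apol11a in CD45 RIT against IgG RIT (-0.44) and Apol6 in IgG RIT against untreated (0.44).

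DESeq2 called 2085 genes for IgG RIT against TBI (edgeR 52), 5942 for IgG RIT and 2485 for TBI against untreated, with 6 members for TBI and 6 for IgG RIT. Without scaling, 203 genes were called for IgG RIT against TBI, and Apol6 in TBI against untreated was -0.086. Without the filter, 2 members were called for IgG RIT against untreated.

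Among libraries numbered 10 or more (TBI replicate 6 and all RIT libraries, chosen after seeing the data), 1128 genes and 0 members were called for CD45 RIT against IgG RIT, 0 genes and 0 members against TBI, and 0 genes for IgG RIT against TBI. Log2 differences against TBI were then -0.52 for Apol11a and -0.43 for Apol11b after CD45 RIT, and -1.24 for Apol11a, -1.09 for Apol11b, -0.32 for Apol8 and -0.62 for Apol9b after IgG RIT. Apol6 no longer passed (adjusted p = 0.0658 and 0.383, edgeR). TBI then had 1 library, assumed to vary like the RIT groups.

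Leaving out 1 library at a time, all genes called ranged from 5840 to 11346 for CD45 RIT against untreated (highest without CD45 RIT replicate 1), 1774 to 2563 for IgG RIT against untreated (lowest without IgG RIT replicate 1), 422 to 826 for TBI against untreated (lowest without untreated replicate 2) and 2 to 2024 for IgG RIT against TBI (highest without TBI replicate 6). Members called ranged from 0 to 2 for CD45 RIT against IgG RIT and against TBI and for TBI against untreated, and from 1 to 2 for IgG RIT against untreated. Differences that changed sign ranged as follows. In CD45 RIT against IgG RIT, Apol10a ran from -3.35 to 0.56, Apol11a from -2.76 to 1.47 and Apol11b from -2.11 to 1.37. In CD45 RIT against TBI, Apol10a ran from -3.64 to 0.66, Apol11a from -2.38 to 2.11 and Apol11b from -1.60 to 2.15. In IgG RIT against TBI, Apol10a ran from -0.56 to 0.79 and Apol10b from -0.52 to 0.58. Against untreated, Apol6 ran from -5.13 to 2.18 for IgG RIT and from -0.57 to 5.17 for TBI, and Apol8 from -11.67 to 2.73 for CD45 RIT. Where 1 CD45 RIT library remained, it was assumed to vary like the other groups. With 2 CD45 RIT libraries at 2498 and 192 CPM of Apol11b, the precision of each CD45 RIT mean is limited by their number, not by depth.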
